A study of Mus musculus with 12 samples.

Results

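The genes described here are 10 members of the Hippo signalling pathway and its transcriptional output, chosen by gene symbol from the deposited count table: the coactivators Yap1 and Wwtr1 (the gene for TAZ), the DNA-binding partners Tead1 and Tead3, the kinases Lats1 and Lats2, and the target genes Ccn1, Ccn2, Crim1 and Axl. All 10 were found among 56748 genes, and all 10 passed the filter on low counts that left 16947 genes for testing. Bulk RNA from whole mouse kidney was sequenced in 3 groups of 4 samples. All mice were labelled C57bl/6-wt and all were given cisplatin, a platinum drug toxic to the renal tubule: AKI kidneys had cisplatin alone, UC kidneys had cisplatin and umbilical cord mesenchymal stem cells, and pFUS_UC kidneys had cisplatin, pulsed focused ultrasound and these cells, which the labels call primary MSC. Sex, age, doses, ultrasound settings, the time of sampling and the species of the cells are not stated in the labels, and no uninjured or ultrasound-only group was analysed here. The labels do not state that the 4 samples of a group came from separate animals. The p-values therefore judge group differences against the spread between these samples, which may be technical.

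The Hippo pathway is a kinase cascade that restrains growth. The MST kinases (genes Stk3 and Stk4) with the scaffold SAV1 activate LATS1 and LATS2, which phosphorylate YAP and TAZ and so keep them in the cytoplasm or mark them for degradation; dephosphorylated YAP and TAZ enter the nucleus and bind TEAD proteins on target genes. Much of this control acts on protein phosphorylation and location, which RNA counts do not measure. In kidney, YAP and TAZ are known to respond to tubular injury, and CCN2 (connective tissue growth factor) is a widely used readout of profibrotic signalling.

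TEAD proteins bind the letters GGAATG, or CATTCC on the other strand, and these were looked for in the 250 bases upstream of each gene's start. RefSeq (build GRCm38.p6, which is not the GRCm39 build of the deposited tables) had an entry for 8 of the 10 genes, all except Tead1 and Ccn2, with 12 windows in all, some overlapping. The letters occurred in at least 1 window of 6 genes (Yap1, Wwtr1, Tead3, Ccn1, Crim1 and Axl) and in 8 of the 12 windows, against 12.6% of 32817 windows of all genes in the same table. The overlapping Wwtr1 windows hold the same match, which is counted in both. The background is a share of windows, and no share of genes was computed. Neither the AP-1 letters TGANTCA nor a CArG box, the serum response factor motif, occurred in any of the 12 windows, against 6.75% and 1.47% of all windows. A match is a description of these letters and shows no binding. The windows of Yap1 and of the 3 target genes with a match are shown because these are the coactivator and the outputs compared below; they are written 5′ to 3′ on the gene's strand with the TEAD letters in capitals. The Yap1 window (chr9:8004597-8004846, minus strand) has its match 141 bases before the gene start, Ccn1 (chr3:145649986-145650235, minus strand) 103 bases before, Crim1 (chr17:78199998-78200247, plus strand) 79 bases before and Axl (chr7:25788734-25788983, minus strand) 233 bases before.
Yap1: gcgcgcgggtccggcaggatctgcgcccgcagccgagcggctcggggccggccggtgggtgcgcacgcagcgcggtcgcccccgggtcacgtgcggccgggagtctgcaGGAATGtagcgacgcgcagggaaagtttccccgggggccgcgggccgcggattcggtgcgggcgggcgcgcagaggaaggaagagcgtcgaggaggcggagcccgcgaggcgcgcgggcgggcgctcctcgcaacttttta
Ccn1: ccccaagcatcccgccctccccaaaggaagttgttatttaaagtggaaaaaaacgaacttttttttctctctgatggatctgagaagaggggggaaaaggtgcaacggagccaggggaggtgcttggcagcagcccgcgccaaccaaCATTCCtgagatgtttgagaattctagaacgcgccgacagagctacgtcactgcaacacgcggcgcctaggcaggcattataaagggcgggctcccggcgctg
Crim1: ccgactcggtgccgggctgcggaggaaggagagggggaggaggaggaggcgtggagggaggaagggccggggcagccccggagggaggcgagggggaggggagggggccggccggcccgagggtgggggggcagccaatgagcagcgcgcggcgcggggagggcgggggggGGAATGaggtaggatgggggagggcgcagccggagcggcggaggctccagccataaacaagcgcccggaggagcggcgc
Axl: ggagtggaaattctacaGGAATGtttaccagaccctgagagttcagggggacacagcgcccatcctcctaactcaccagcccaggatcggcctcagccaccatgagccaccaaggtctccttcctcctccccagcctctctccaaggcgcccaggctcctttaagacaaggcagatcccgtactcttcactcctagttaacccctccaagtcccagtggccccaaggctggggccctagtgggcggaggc

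The 12 libraries held 17.3 to 25.2 M (mega) counts each, and levels are given in CPM, the counts of a gene per 1 M counts of its library. CPM values are scaled by TMM, edgeR's normalization between libraries. A count of 0 would allow a level of 3 counts, which is 0.126 to 0.187 CPM on this scale and covers counting error alone. As a check of the labelled tissue, the summed level of 12 proximal tubule markers was 11510 to 33690 CPM over the 12 libraries. The share of counts on the mitochondrial genome was 2.87 to 7.12% in AKI; UC had 8.57 to 18.6% and pFUS_UC 7.38 to 15.3%. Within each library, the deviation of 14172 protein-coding genes from their mean over libraries rose with gene length in AKI (Spearman correlation across genes 0.157 to 0.377) and was lower in UC (-0.209 to -0.13) and in pFUS_UC (-0.244 to 0.011). Sample codes in the labels are written differently for AKI kidneys than for kidneys with cells, so any difference between library sets and the effect of the cells cannot be told apart.

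Kidneys given cells had lower levels of 9 of these 10 genes than kidneys with cisplatin alone, and among the 10 the target genes differed most. In UC against AKI 9 of the 10 genes fell, all except Tead3, with a median log2 fold change of -0.71 over the 10 genes and 0.03 over all tested genes. Of all tested genes, 48.4% were called in either direction and 24.3% were called lower in that comparison (edgeR's quasi-likelihood test, Benjamini-Hochberg adjusted p under 0.05). In pFUS_UC against AKI the same 9 genes fell, with a median of -0.74 against 0.02 over all tested genes, where 44.0% of all genes were called and 22.1% were called lower. These comparisons share the AKI samples, so they are not independent of each other. The levels of 7 genes did not overlap between AKI and UC and were lower in UC (background 41.7% of genes without overlap, 21.3% lower), and the same held for 7 genes between AKI and pFUS_UC (background 40.8%, 21.1% lower); in both cases Tead3, Lats1 and Ccn1 overlapped. With the length and GC offset described below the median of the 10 genes was -0.46 in UC and -0.62 in pFUS_UC, against 0.05 and 0.03 over all genes with a GC value. In bulk tissue, fewer cells of a type and less RNA per cell cannot be told apart.

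**Figure D1:**
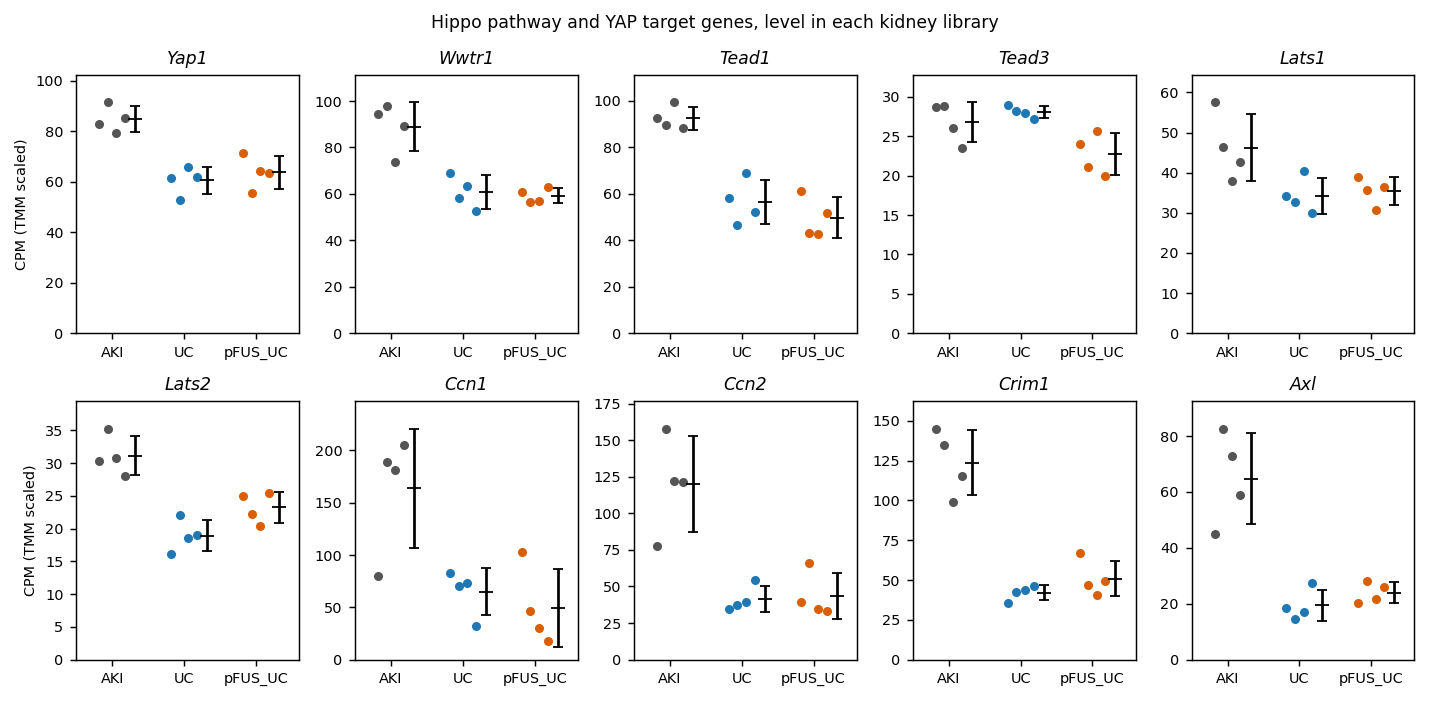
Level of each of the 10 genes in every library, in CPM scaled by TMM on a linear axis from 0, by group; points are libraries and bars are the mean and SD of 4. The AKI points lie above all points of both other groups for Yap1, Wwtr1, Tead1, Lats2, Ccn2, Crim1 and Axl, and Ccn1 shows a wide spread in every group.

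Both coactivators were lower with cells, by less than the targets. Yap1 (ENSMUSG00000053110, GRCm39 chromosome 9, 7932000 to 8004597, minus strand) was at 82.8, 91.5, 79.3 and 85.4 CPM in AKI replicates 1 to 4, at 61.7, 52.9, 65.9 and 61.9 CPM in UC and at 71.4, 55.7, 64.2 and 63.6 CPM in pFUS_UC. Every AKI library was above every library of the other groups. Its log2 fold change was -0.48 (SE 0.10, adjusted p = 0.00178) in UC against AKI and -0.41 (SE 0.10, adjusted p = 0.0057) in pFUS_UC against AKI. Wwtr1 (ENSMUSG00000027803, chromosome 3, 57363070 to 57483331, minus strand) encodes TAZ, the paralog of YAP. It was at 94.4, 98.0, 73.9 and 89.2 CPM in AKI, 69.2, 58.2, 63.5 and 52.5 CPM in UC and 60.9, 56.3, 56.8 and 63.0 CPM in pFUS_UC, again with no overlap between AKI and either other group. Wwtr1 fell by 0.55 on the log2 scale (SE 0.11, adjusted p = 0.00152) with cells and by 0.58 (SE 0.11, adjusted p = 0.00126) with ultrasound and cells. Per length, on the deposited FPKM scale, Yap1 was at 0.496 ± 0.0424 of the Wwtr1 level in AKI, 0.519 ± 0.0686 in UC, and 0.555 ± 0.0463 with ultrasound and cells (SD, 4 samples a group), and the ratio's 2-sided exact permutation tests gave p = 0.657 for UC against AKI and p = 0.143 for pFUS_UC against AKI (adjusted over 12 ratio tests, 0.789 and 0.549). A difference in the ratio was not detectable with 4 samples a group. The Yap1 calls were lost with the offsets for gene length and for length and GC content described below (adjusted p = 0.0685 and 0.0719 in UC, 0.111 and 0.097 in pFUS_UC), and those of Wwtr1 held.

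Of the DNA-binding partners, Tead1 fell and Tead3 did not pass the test. Tead1 (ENSMUSG00000055320, chromosome 7, 112278525 to 112506014, plus strand) was at 92.4, 89.8, 99.3 and 88.3 CPM in AKI, 58.3, 46.6, 69.0 and 52.0 CPM in UC and 61.3, 43.3, 42.8 and 51.5 CPM in pFUS_UC. The AKI libraries lay close together and above all others. The log2 fold changes were -0.71 (SE 0.14, adjusted p = 0.00107) and -0.89 (SE 0.14, adjusted p = 0.000339). Tead3 (ENSMUSG00000002249, chromosome 17, 28550645 to 28569791, minus strand) was at 28.7, 28.9, 26.0 and 23.5 CPM in AKI, 28.9, 28.2, 28 and 27.1 CPM in UC and 24.0, 21.1, 25.7 and 19.98 CPM in pFUS_UC. Both groups with cells overlapped with AKI, and its log2 fold change was 0.07 in UC against AKI (95% interval -0.18 to 0.31, adjusted p = 0.624) and -0.24 in pFUS_UC against AKI (interval -0.48 to 0.01, adjusted p = 0.0896); with the length and GC offset it rose in UC, by 0.41 (adjusted p = 0.0123). On the FPKM scale the ratio of Tead1 to Tead3 was 1.72 ± 0.18 in AKI, 0.995 ± 0.167 in UC, and 1.09 ± 0.216 with ultrasound and cells (SD, 4 samples a group). No library with cells reached the lowest AKI ratio of 1.54. The 2-sided exact permutation p was 0.0286 against AKI for both groups, the smallest that 4 against 4 samples can give. After adjustment over 12 ratio tests it was 0.171. An adjusted p under 0.05 would need most of the 12 tests at this smallest value, so the adjusted p cannot decide whether the ratio differed. Reads from Tead1 and from 2310014F06Rik, a non-coding gene on the opposite strand with 43 to 162 counts, cannot be told apart where they overlap, since the labels do not say whether the libraries keep strand.

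Both genes for LATS kinases, which phosphorylate YAP and TAZ, passed the test as lower with cells, but only the Lats2 call in UC held under all alternatives. Lats1 (ENSMUSG00000040021, chromosome 10, 7556978 to 7592224, plus strand) was at 57.5, 46.5, 38.1 and 42.8 CPM in AKI, 34.1, 32.6, 40.5 and 29.97 CPM in UC and 38.8, 35.7, 30.6 and 36.5 CPM in pFUS_UC. The groups overlapped, with AKI replicate 1 highest of all. Lats1 fell by 0.43 on the log2 scale in UC against AKI (SE 0.14, adjusted p = 0.0197) and by 0.38 in pFUS_UC against AKI (SE 0.14, adjusted p = 0.0356). Without AKI replicate 1 neither call held (-0.31, adjusted p = 0.0575, and -0.27, adjusted p = 0.103), and the pFUS_UC call was also lost without AKI replicate 2 (adjusted p = 0.0654) or without pFUS_UC replicate 2 (0.0681), 3 (0.105) or 4 (0.0578). Both calls were lost with the length offset (adjusted p = 0.174 and 0.206), and the UC call without UC replicates 1 and 2 together (0.117). Lats2 (ENSMUSG00000021959, chromosome 14, 57927119 to 57995845, minus strand) is itself a transcriptional target of YAP. It was at 30.4, 35.3, 30.8 and 28.04 CPM in AKI, 16.1, 22.0, 18.5 and 19.0 CPM in UC and 25.0, 22.3, 20.3 and 25.5 CPM in pFUS_UC. AKI did not overlap with either group, and the log2 fold changes were -0.72 (SE 0.12, adjusted p = 0.000432) and -0.42 (SE 0.12, adjusted p = 0.0131). The pFUS_UC call was lost with the length offset (-0.26, adjusted p = 0.0938) and with the length and GC offset (-0.11, 0.494). The Lats1 to Lats2 ratio on the FPKM scale was 1.43 ± 0.281, 1.76 ± 0.346 and 1.46 ± 0.0688 (SD, n = 4 each, in the order AKI, UC, pFUS_UC), with no exact permutation p below 0.2 in the 3 comparisons.

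The secreted matricellular proteins CCN1 (CYR61) and CCN2 are the targets used most often as a readout of YAP and TAZ. Ccn2 (ENSMUSG00000019997, chromosome 10, 24471340 to 24474581, plus strand) was at 77.7, 158, 122 and 122 CPM in AKI, 34.4, 37.1, 39.4 and 54.4 CPM in UC and 39.4, 66.4, 34.5 and 33.3 CPM in pFUS_UC. The lowest AKI library was above the highest library of the other groups. Ccn2 was 2.90-fold lower in UC (log2 fold change -1.54, SE 0.25, adjusted p = 0.00032) and 2.77-fold lower in pFUS_UC (-1.47, SE 0.25, adjusted p = 0.000582). Ccn1 (ENSMUSG00000028195, chromosome 3, 145352731 to 145355736, minus strand) varied more between replicates than Ccn2, most clearly in pFUS_UC. It was at 79.6, 189, 182 and 205 CPM in AKI, 83.2, 70.3, 73.6 and 32.2 CPM in UC and 103, 46.2, 29.9 and 17.9 CPM in pFUS_UC. AKI replicate 1 lay below UC replicate 1 and below pFUS_UC replicate 1, far from the other AKI libraries. The coefficient of variation of Ccn1 was 34.8% in AKI and 34.6% in UC, and it reached 76.5% in pFUS_UC, where the highest library was 5.75 times the lowest. Ccn1 fell by 1.34 on the log2 scale in UC against AKI (SE 0.46, adjusted p = 0.029) and by 1.73 in pFUS_UC against AKI (SE 0.47, adjusted p = 0.00956). The UC call was lost, at adjusted p of 0.0526 to 0.0691, when AKI replicate 2, 3 or 4 or UC replicate 2 or 4 was left out, and without UC replicates 1 and 2 together (-1.63, adjusted p = 0.0665). The pFUS_UC call held without each library, and its size was -2.39 without pFUS_UC replicate 1.

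Crim1 and Axl, targets that encode membrane proteins, had the lowest adjusted p-values of the 10 genes in both comparisons against AKI. Crim1 (ENSMUSG00000024074, chromosome 17, 78507677 to 78684021, plus strand), a transmembrane protein that binds bone morphogenetic proteins, was at 145, 135, 99.2 and 115 CPM in AKI, 35.5, 42.6, 43.7 and 46.5 CPM in UC and 66.7, 47.1, 40.7 and 49.3 CPM in pFUS_UC. The lowest AKI library was above the highest library with cells. Crim1 was 2.94-fold lower in UC (log2 fold change -1.55, SE 0.16, adjusted p = 3.43e-05) and 2.43-fold lower in pFUS_UC (-1.28, SE 0.16, adjusted p = 0.000108). The gene overlaps Fez2 on the opposite strand, which had 872 to 1540 counts, so its level is uncertain by the reads the pair may share. Axl (ENSMUSG00000002602, chromosome 7, 25456698 to 25488130, minus strand) is a receptor tyrosine kinase of the TAM family that binds GAS6 and takes part in clearing dying cells. It was at 45.0, 82.7, 72.7 and 58.8 CPM in AKI, 18.3, 14.7, 16.9 and 27.6 CPM in UC and 20.4, 28.2, 21.6 and 25.8 CPM in pFUS_UC. All libraries with cells lay below the lowest AKI library. Axl was 3.34-fold lower in UC (log2 fold change -1.74, SE 0.22, adjusted p = 6.61e-05) and 2.70-fold lower in pFUS_UC (-1.43, SE 0.21, adjusted p = 0.000273).

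**Figure D2:**
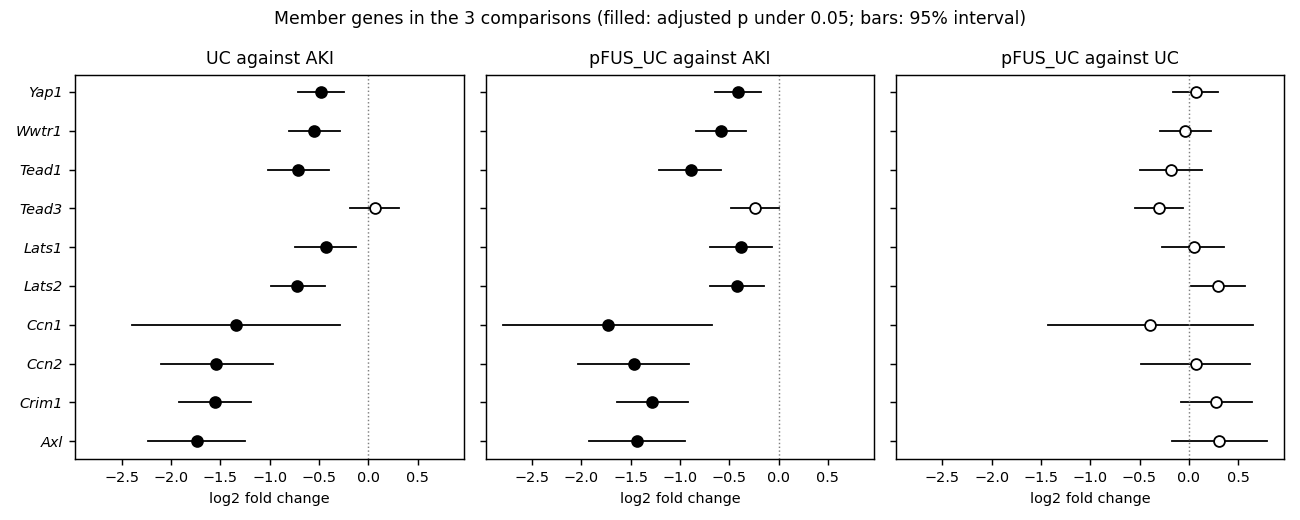
Log2 fold change of the 10 genes in the 3 comparisons with 95% intervals from edgeR; filled points passed an adjusted p of 0.05. The intervals of 9 genes lie below 0 in both comparisons against AKI, the 4 targets lie lowest, and no gene is filled in pFUS_UC against UC.

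The comparison of pFUS_UC with UC addresses what ultrasound added to the cells. No member passed the test, with a median log2 fold change of 0.06 over the 10 genes, and no tested gene passed it at all (0.0% called in edgeR; 1342 genes, 7.92%, had an unadjusted p below 0.05, and DESeq2 called 35 genes, no member among them). Unadjusted p-values below 0.05 were found for 2 members, Tead3 and Lats2. Tead3 was 0.30 lower on the log2 scale (95% interval -0.55 to -0.06, adjusted p = 0.597), and every pFUS_UC library was below every UC library; 3.9% of all tested genes likewise had no overlap between these groups. Lats2 was 0.30 higher in pFUS_UC (interval 0.02 to 0.57, adjusted p = 0.608). The intervals of the coactivators were narrow, -0.16 to 0.30 for Yap1 and -0.29 to 0.22 for Wwtr1, and those of Tead1 (-0.50 to 0.13) and Lats1 (-0.27 to 0.36) were wider. Among the targets the intervals were -1.43 to 0.65 for Ccn1, -0.49 to 0.62 for Ccn2, -0.08 to 0.64 for Crim1 and -0.17 to 0.79 for Axl. The interval of every target includes a difference larger than 1.5-fold, and a p-value that misses the threshold does not show that the groups were alike.

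The AKI libraries differed from the others in how levels varied with gene length. The median length of tested genes was 3871 bases, while Yap1 and Tead1 are listed at 9257 and 13570 bases. Wwtr1, Axl, Crim1, Tead3, Lats2 and Lats1 are also longer than the median, at 4779 to 7297 bases. Only Ccn1 (2019 bases) and Ccn2 (2861 bases) are shorter. The fits were therefore repeated with an offset per library for gene length, and for gene length with GC content. With the length offset 7 members fell in UC against AKI (21.2% of all genes were called lower) and 6 in pFUS_UC against AKI (19.6%). With the length and GC offset 8 fell in UC (20.9% of all genes called lower) and 7 in pFUS_UC (18.8%). Ccn1, Ccn2, Crim1, Axl, Tead1 and Wwtr1 fell under both offsets in both comparisons. Yap1 passed under neither offset, at -0.23 and -0.22 in UC and at -0.20 and -0.21 in pFUS_UC. Lats1 was at -0.22 and -0.21 with the length offset, and Tead3 at 0.09 (adjusted p = 0.542) in pFUS_UC with the length and GC offset. The calls of the targets, of Tead1 and of Wwtr1 held with and without these offsets, and those of Yap1 and, in pFUS_UC, of Lats2 were lost with both. Those of Lats1 were lost with the length offset. With the length and GC offset Lats1 passed in both comparisons (in UC -0.33, adjusted p = 0.0252).

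**Figure D3:**
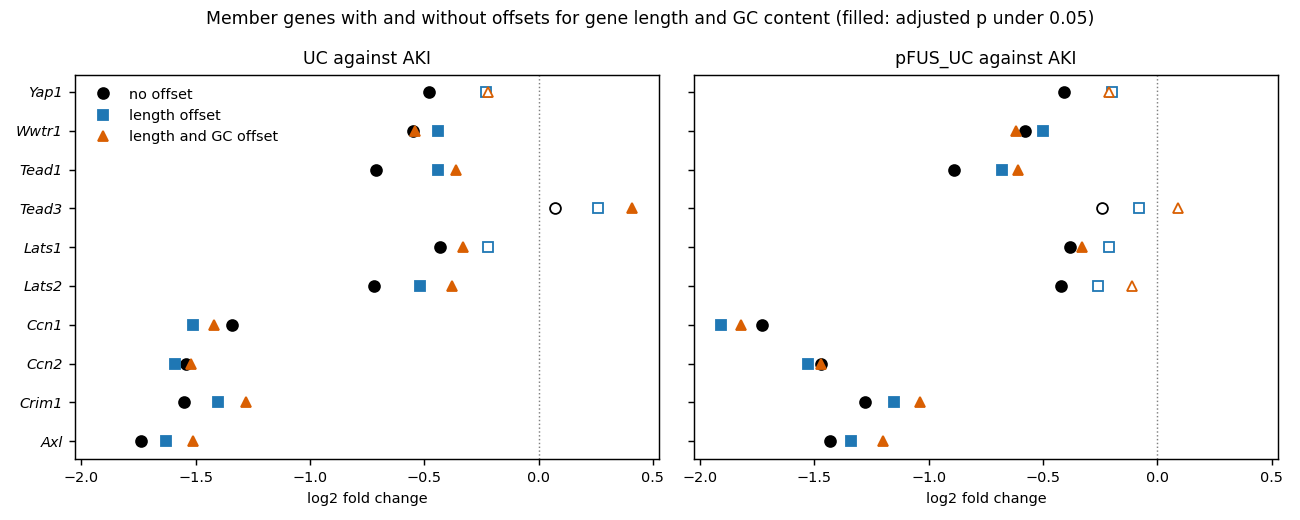
Log2 fold change of each gene with no offset, with an offset per library for gene length and with an offset for gene length and GC content, in both comparisons against AKI; filled symbols passed an adjusted p of 0.05. The offsets bring Yap1, Tead1, Lats1 and Lats2 nearer to 0 and move Tead3 to the right, and the 4 target genes stay below -1 under all 3 fits.

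On the FPKM scale, which divides by gene length and so allows levels of different genes to be set side by side, Ccn1 and Ccn2 led in every group. In AKI the mean levels were 82.2 FPKM for Ccn1, 42.4 for Ccn2, 20.8 for Crim1, 18.7 for Wwtr1, 13.0 for Axl, 9.23 for Yap1, 6.87 for Tead1, 6.38 for Lats1, 4.50 for Lats2 and 4.02 for Tead3. The ranges of neighbours in this order were apart only between Ccn2 and Crim1, between Yap1 and Tead1 and between Lats1 and Lats2. In UC the order was Ccn1 (32.1), Ccn2 (14.5), Wwtr1 (12.7), Crim1 (7.02), Yap1 (6.55), Lats1 (4.70), Tead3 (4.18), Tead1 (4.16), Axl (3.85) and Lats2 (2.72). In pFUS_UC it was Ccn1 (24.3), Ccn2 (15.1), Wwtr1 (12.4), Crim1 (8.47), Yap1 (6.86), Lats1 (4.84), Axl (4.75), Tead1 (3.65), Tead3 (3.37) and Lats2 (3.32). In both groups with cells only Wwtr1 and Crim1, and Yap1 and Lats1, had ranges apart among neighbours. Crim1 stood above Wwtr1 in AKI and below it in UC and pFUS_UC, and Axl was 5th in AKI, 9th in UC and 7th in pFUS_UC. The Ccn1 to Ccn2 ratio was 1.91 ± 0.42, 2.40 ± 1.10 and 1.67 ± 1.37 (SD, n = 4 each), with no exact permutation p below 0.429.

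The other pathway genes that were called mostly fell, in lists that had been chosen with earlier results of these data known. The shares of all tested genes called lower, against which each count is read, were 24.3% in UC and 22.1% in pFUS_UC, and 20.9% and 18.8% with the length and GC offset. Of 7 core kinases and scaffolds 5 fell in UC against AKI (median log2 fold change -0.47) and 4 in pFUS_UC against AKI (-0.38), and none rose; 2 of the 7 are Lats1 and Lats2. Sav1, the scaffold of the MST kinases, was at 27.4 ± 3.09 CPM in AKI, 9.24 ± 1.97 in UC, and 9.73 ± 2.86 with ultrasound and cells (SD, 4 samples a group; log2 fold changes -1.56 and -1.49, adjusted p = 0.0001 and 0.000199). Stk4, the gene for MST1, fell by 0.98 and by 0.84 (adjusted p = 0.000151 and 0.000557). Mob1a, a LATS cofactor, fell by 0.47 in UC (adjusted p = 0.0286) and was at -0.37 in pFUS_UC (adjusted p = 0.0751). The UC call of Mob1a was lost with the length offset (adjusted p = 0.0634) and without AKI replicate 1 (0.0688) or 2 (0.0626), UC replicate 1 (0.0703) or 2 (0.0837) or both of these UC replicates (0.259), and in pFUS_UC it passed with the length and GC offset (0.0288) or without pFUS_UC replicate 1 (0.0223). Of 18 upstream regulators 12 fell and 1 rose in each comparison (medians -0.58 and -0.74). Fat1, an atypical cadherin, was at 149 ± 26.2 CPM in AKI against 57.8 ± 8.57 in UC, and 43.2 ± 11.2 with ultrasound and cells (SD, 4 samples a group; adjusted p = 9.08e-05 and 5.5e-05). Nf2, the gene for merlin, fell by 0.79 and by 0.55, Wwc2, of the KIBRA family, by 1.17 and by 0.94, and Frmd6 by 1.22 and by 1.23 (largest adjusted p of these 0.000571). Crb3, a polarity protein named because it was the single gene that rose, increased by 0.56 and 0.59 (adjusted p = 0.000887 and 0.000785). With the length and GC offset 7 of the 18 fell and 2 rose in UC (median -0.27), and 11 fell and 3 rose in pFUS_UC (median -0.39).

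The RNA of most genes for proteins that bind YAP or TEAD was lower as well. Of 8 tested genes of this list, Yap1 and Wwtr1 among them, 7 fell in each comparison (medians -0.93 and -0.81), while Vgll1 and Vgll2 did not pass the filter on low counts. With the length and GC offset 6 of the 8 fell in each, with medians of -0.63 and -0.62. Vgll4, which competes with YAP for TEAD binding, was at 52.9 ± 2.53 CPM in AKI, 16.6 ± 3.32 in UC, and 18.4 ± 6.39 with ultrasound and cells (SD, 4 samples a group; log2 fold changes -1.67 and -1.52, adjusted p = 7.22e-05 and 0.000179). Amot and Amotl1, angiomotins that hold YAP at cell junctions, fell by 0.99 and 1.47 in UC (adjusted p = 3.85e-05 and 0.000226) and by 0.86 and 1.29 in pFUS_UC (adjusted p = 0.000108 and 0.000676). The members of this list that fell therefore include genes whose products restrain YAP. In the TEAD family Tead4 fell by 1.79 and by 1.38 from 3.49 ± 0.713 CPM in AKI (SD, n = 4; adjusted p = 0.00564 and 0.0223), and Tead2 was at -0.29 and -0.14 (adjusted p = 0.453 and 0.732), so 2 of the 4 TEAD genes fell (medians of the 4 -0.50 and -0.57, and -0.21 and -0.26 with the length and GC offset). The pFUS_UC call of Tead4 was lost without AKI replicate 2 (adjusted p = 0.0528) or 3 (0.0517) or pFUS_UC replicate 3 (0.0646).

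Of 21 tested target genes of YAP and TAZ, 13 fell and 1 rose in UC (median -0.78) and 16 fell in pFUS_UC (median -0.82); Foxf2 did not pass the filter. With the length and GC offset 12 fell and 0 rose in UC (median -0.44), and 13 fell in pFUS_UC (median -0.65). Without the 5 that are among the 10 genes above, 8 of 16 fell and 1 rose in UC, and 11 of 16 fell in pFUS_UC. Igfbp3, which binds insulin-like growth factors, had the largest difference of the list, with 447 ± 157 CPM in AKI against 39.6 ± 9.80 in UC, and 71.2 ± 10.2 with ultrasound and cells (SD, 4 samples a group; log2 fold changes -3.50 and -2.65, adjusted p = 1.06e-05 and 5.5e-05). Arhgef17 fell by 1.16 and by 1.10 (adjusted p = 2.38e-05 and 5.5e-05), and Nt5e, the gene for the ectonucleotidase CD73, by 0.78 and by 1.07 (adjusted p = 0.00143 and 0.000273). The gene that rose was Gadd45a, a stress response gene, by 0.46 in UC (adjusted p = 0.0215), against 0.15 in pFUS_UC (adjusted p = 0.432). This rise did not pass with the length offset (0.24, adjusted p = 0.197), with the length and GC offset (0.30, 0.11) or without AKI replicate 3 (0.0665) or 4 (0.066) or UC replicate 3 (0.0674). Of the CCN family, Ccn4 fell by 1.39 and by 1.31 (adjusted p = 0.0165 and 0.0233), with calls lost without AKI replicate 3 (0.0549 and 0.0742), in UC also without UC replicates 1 and 2 (0.0983), and in pFUS_UC also with the replicate block (0.0576) and without AKI replicate 2 (0.0615) or pFUS_UC replicate 2 (0.0648) or 3 (0.0678); Ccn3 did not pass (adjusted p = 0.157 and 0.254), and Ccn5 and Ccn6 were too low to test. Of the TAM family, Mertk was at 56.8 ± 5.46 CPM in AKI against 20.8 ± 4.67 in UC, and 24.6 ± 2.76 with ultrasound and cells (SD, 4 samples a group; adjusted p = 3.79e-05 and 0.000116), and Tyro3 and the ligand gene Pros1 also fell in both comparisons (largest adjusted p 0.0341). The pFUS_UC call of Tyro3 was lost with both offsets (adjusted p = 0.108 and 0.301), with no filter (0.0561), with the replicate block (0.061), without AKI replicate 2 (0.0792) or 4 (0.115) and without any single pFUS_UC replicate (0.06 to 0.0721). The ligand gene Gas6 was at 1022 ± 214 CPM in AKI, 936 ± 191 in UC, and 792 ± 247 with ultrasound and cells (SD, 4 samples a group), a difference within the spread of replicates (adjusted p = 0.676 and 0.217). No gene of these 7 lists was called in pFUS_UC against UC.

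**Figure D4:**
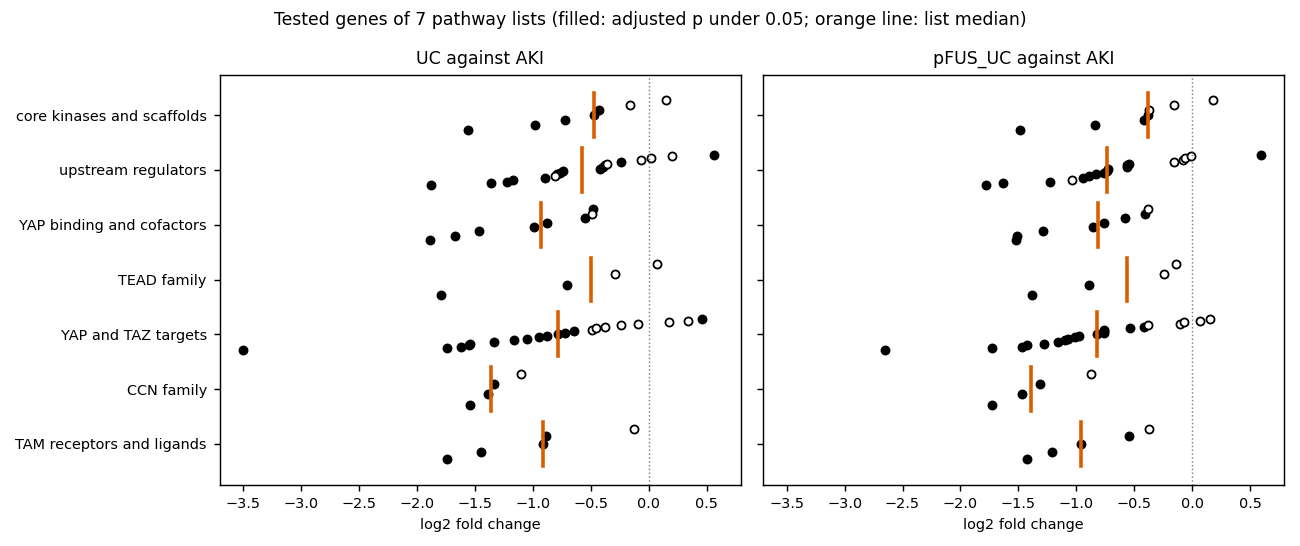
Log2 fold change of every tested gene of 7 pathway lists in both comparisons against AKI, with the median of each list as an orange line; filled points passed an adjusted p of 0.05. All 7 medians lie below 0 in both comparisons, and Igfbp3 is the point furthest to the left.

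Markers of glomerular, vascular and stromal cells moved with the Hippo and target genes. Beside the marker counts below, 24.3% of all tested genes were called lower and 24.1% higher in UC against AKI. In pFUS_UC against AKI these shares were 22.1% and 21.9%. The summed level of 12 podocyte markers was 933 to 1378 CPM in AKI; in UC it was 210 to 407 CPM and in pFUS_UC 328 to 475 CPM, and 11 of the 12 fell in each comparison. For 12 endothelial markers the sums were 956 to 1668, 239 to 615 and 433 to 604 CPM; 10 fell in UC, and 9 fell and 1 rose in pFUS_UC. For 12 markers of stroma and mesangium they were 375 to 857, 166 to 276 and 258 to 313 CPM, and 10 and 7 fell. The sums of these 3 lists did not overlap between AKI and either group with cells. Macrophage markers overlapped between all groups (97.7 to 174, 70.1 to 142 and 124 to 170 CPM; 3 and 1 of 9 tested genes fell), and so did collecting duct markers (1131 to 1794, 1173 to 3035 and 1485 to 2306 CPM; none of 8 fell, 3 and 2 rose). Of 12 proximal tubule markers 5 fell and 1 rose in UC, and 4 fell and 1 rose in pFUS_UC. Of 8 markers of thick limb and distal tubule 1 fell and 2 rose in UC, and 2 fell and 3 rose in pFUS_UC. Their summed level was also lower on average with cells. It was 3891 to 6217 CPM in AKI (mean 5202), 1598 to 3896 CPM in UC (mean 2582) and 3052 to 4158 CPM in pFUS_UC (mean 3625). The AKI range overlapped with both, in UC only at its edge. No marker gene was at 0 in all samples of a group. The summed level of the 10 Hippo and target genes was 734 to 955 CPM in AKI; in UC it was 403 to 459 CPM and in pFUS_UC 367 to 511 CPM, and the part of cell composition in their difference was not tested.

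Across the 12 samples, the genes whose pattern was most like that of Yap1 were Fem1b, Stam2 and Zmpste24, with a root mean square difference of centred log2 CPM of 0.071, 0.083 and 0.087, against a median of 0.41 over 14171 protein-coding genes. Wwtr1 ranked 330th by the same measure (0.143). Most like Ccn2 were Klf2, a shear-responsive transcription factor of endothelium, Tie1, an endothelial receptor, and Mfge8, a bridging protein for the uptake of dying cells, at 0.195, 0.236 and 0.237 against a median of 0.82. Klf2 was at 59.5 ± 14.1 CPM in AKI, 21.0 ± 5.001 in UC, and 21.8 ± 2.63 with ultrasound and cells (SD, 4 samples a group). Axl ranked 5th for Ccn2 (0.256) and Crim1 381st, while Ccn1, the other CCN target, ranked 5464th. These samples share the group differences, so likeness over them describes a common pattern of levels only.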

How the data were processed

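The deposited counts are raw, whole numbers for each gene, and the deposited FPKM values are the authors' values per kilobase of listed gene length and per 1 M (mega) of a total set for each sample, 0.862 to 1.11 times the summed counts. HTSeq, DESeq2 and the build GRCm39 (mm39) are named, with no versions, per the submitters' processing notes; the aligner and the strand setting are not named there.

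From the counts, edgeR 4.0.16 (R 4.3.3) was fitted to all 12 samples with TMM scaling, filterByExpr (minimum count 10, minimum total 15) and the quasi-likelihood F-test on 9 residual degrees of freedom, adjusted by Benjamini-Hochberg over 16947 genes. Standard errors are the absolute log2 fold change over the square root of F. Offsets were smooth curves per library (mgcv 1.9.3), with GC content from a GRCm38 annotation matched by identifier (98.1% of tested genes). In counts simulated for UC against AKI over 16947 genes, the fit called 46 of 98 genes changed by 1 on the log2 scale and 82 of 94 changed by 2, in the right direction, with 12 false calls. Only these genes were changed there, whereas 48.4% of tested genes were called in the data. The simulated libraries also had no trend with gene length. These counts therefore check the fit and do not give the recovery or false calls in the data. Replicates differed by more than sampling noise (chi-square per degree of freedom 23.6 to 91.7).

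The members and lists were chosen with earlier results of these data known. The rule names all members, the 3 genes of each pathway list with the smallest p outside the members, and the other TEAD, CCN and TAM genes; not all are printed. Alternatives were DESeq2 1.42.0, its size factors, other filters, fits of 2 groups, a replicate block, offsets, limma 3.58.1 on log2(FPKM + 1) and log2(FPKM + 0.1), no mitochondrial genes (this and the length and GC offset added later) and leaving out samples.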

Additional observations from a re-analysis of the deposited data

How the results depend on the processing

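Of the members' fold changes recomputed under each alternative, 188 of 200 in UC against AKI, 179 of 190 in pFUS_UC against AKI and 191 of 200 in pFUS_UC against UC kept their direction and their side of the threshold. The number of members called was 8 to 9 in both comparisons against AKI when each sample was left out in turn, and the number of genes called was 7090 to 8443 and 5945 to 7740. Without UC replicates 1 and 2 together, the libraries with the highest mitochondrial share, 5414 genes were called in UC against AKI and 7 members, Ccn1 and Lats1 being lost; the cause was not tested, and fewer samples were fitted. In pFUS_UC against UC, where edgeR called 0 genes, DESeq2 called 35, the fit with no filter 13 and the replicate block 2, and leaving out single samples gave 0 to 1 (1 without pFUS_UC replicate 4). Same-numbered samples did not clearly deviate together (r from -0.165 to 0.147, over 0.1 in 2 of 12 pairs, and 4 of 24 comparisons best with their own number). These correlations show no pairing by number and cannot exclude one. With the replicate block 7791 and 7044 genes were called in the comparisons against AKI, and 9, 9 and 0 members. Tead3 in pFUS_UC against AKI changed sign with the length and GC offset (0.09). In pFUS_UC against UC, where no member passed, signs changed for Ccn2 (-0.21 to 0.24 over single samples left out, -0.11 without UC replicates 1 and 2), Lats1 (-0.008 to 0.14, and -0.0053 with the length and GC offset), Wwtr1 (-0.10 to 0.03, and 0.03 without UC replicates 1 and 2) and Yap1 (-0.0048 without UC replicates 1 and 2). Among the members, calls of Yap1, Lats1, Lats2, Tead3 and Ccn1 against AKI depended on a setting. With 4 samples a group and 17.3 to 25.2 M (mega) counts, every library held at least 364 counts of Ccn1, and its precision is limited by the spread between replicates.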
